A study of Mus musculus with 8 samples.

Results

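The SLC25 genes encode the mitochondrial carriers, a family of membrane proteins that move metabolites, nucleotides, cofactors and inorganic ions across the inner mitochondrial membrane. Its genes were taken by name: every row of the deposited gene table whose symbol begins with Slc25a and a digit was a member, which gave 47 of 22322 genes. Of these, 41 had enough reads to be tested, among 13337 tested genes. Members with other symbols, such as the uncoupling proteins Ucp1 to Ucp3, were outside the rule and are given separately.

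The carriers share a fold built from repeated pairs of membrane helices and usually work as exchangers, importing one substrate for another. In kidney cells, which depend on mitochondrial energy supply for transport work, they link the cytosol to the tricarboxylic acid cycle, fatty acid oxidation, the malate-aspartate shuttle, haem synthesis and ATP export. Most are made on cytosolic ribosomes without a cleaved targeting sequence and reach the inner membrane through TOM70 at the outer membrane and the TIM22 complex at the inner membrane.

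Transcripts were measured by RNA sequencing of total RNA in 8 mouse samples that the labels call primary renal fibroblasts. Of these, 4 had been given an adenovirus for GFP (Ad-GFP, labelled WT) and 4 an adenovirus for Cre recombinase (Ad-Cre, labelled as a suv39h1 knockdown). Both groups had been treated with TGF-β, a cytokine that activates fibroblasts, at 5 ng/ml for 48 hours, so TGF-β does not differ between them and there was no group without it. The comparison asks how the transcriptome of these TGF-β-treated cells differs when Suv39h1, which encodes a histone H3 lysine 9 methyltransferase, is reduced. The groups also differ in the gene delivered, GFP or Cre, and no other control was present. Effects of Cre or GFP themselves and of less Suv39h1 therefore cannot be told apart. The labels give no age, sex or strain, do not name the allele on which Cre acted, and do not tie the replicates to separate animals or cultures. The p-values therefore measure only how these libraries vary, and that variation may be technical.

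Deposited counts summed to between 15879244 and 17930632 per Ad-GFP library and between 18006938 and 23940043 per Ad-Cre library, and levels are given as CPM, counts per 1000000 of the library total after scaling for its composition. Suv39h1 stood at 29.0, 27.8, 29.3 and 29.6 CPM in the Ad-GFP libraries and at 25.3, 22.8, 21.6 and 22.6 CPM in the Ad-Cre libraries. Its groups did not overlap, and its level in Ad-Cre was 79.6% of that in Ad-GFP (95% interval 73.5 to 86.2%; edgeR, adjusted p = 3.29e-05). Its exons share 767 bases with the antisense gene Gm14820, and the sources used here do not say whether counting used strand. The label was also set against markers, given here as means in Ad-GFP. Fibroblast genes were present, with Vim at 252 and Col1a1 at 207 CPM. The receptor genes Pdgfra and Pdgfrb of that list were at 5.14 and 28.0 CPM. Epithelial genes were present too, with Krt8 at 1504 and Cldn4 at 1141 CPM, above every gene of the fibroblast list.

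Several marker lists differed between the groups in the same comparison as every SLC25 result that follows. Beside them, 40.3% of all tested genes passed the same test, 19.8% higher and 20.5% lower in Ad-Cre. Among genes at 50 CPM or more 52.6% passed, and the lists were not matched for level. Of 9 tested fibroblast genes 5 fell and none rose, with summed levels of 732.7 to 779.8 CPM in Ad-GFP and 468.6 to 543 CPM in Ad-Cre. Endothelial genes fell in 11 of 12 cases (sums of 159.3 to 166.1 and 80.3 to 92.07 CPM; Cdh5 and Pecam1 lead the list), and macrophage and leukocyte genes in 10 of 12 (280.0 to 320.2 and 241.9 to 254.0 CPM; Lyz2 and Csf1r). Of 9 epithelial genes 1 rose and 5 fell (5483 to 5707 and 4972 to 5019 CPM). Of 10 proximal tubule genes 5 were tested and 4 rose (113.7 to 128.9 and 161.6 to 185.6 CPM; Ggt1 and Havcr1). Aqp1 rose most, from 4.52 to 22.4 CPM, and Lrp2 did not pass (92.7%). Slc34a1, Slc5a2 and Miox were at no more than 0.0451 CPM in either group's mean. Slc22a6 and Slc22a8 were at 0 in all 8 libraries. Mural cell genes fell in 4 of 6 cases (265.2 to 278.9 and 231.8 to 244.6 CPM; Mcam and Notch3, of which Notch3 did not pass the test), and all 8 proliferation genes fell (272.4 to 280.1 and 154.7 to 170.3 CPM; Mcm6 and Rrm1). Brown adipocyte and muscle genes summed to at most 0.591 CPM in any library. The part of these lists in the SLC25 results was not tested, and in such bulk samples fewer cells of a type and less RNA per cell cannot be told apart.

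Most of the family was transcribed in these cells, at very unequal levels. Levels of different members are compared here as the deposited FPKM, fragments per unit of transcript length and of library size. The phosphate carrier Slc25a3 was highest, at a mean of 262 FPKM in Ad-GFP, followed by the ADP/ATP carriers Slc25a5 at 177 and Slc25a4 at 74.7 FPKM. These 3 genes held 49.5 to 50.4% of the family's summed FPKM in the Ad-GFP libraries and 50.2 to 50.8% in the Ad-Cre libraries. Next came the citrate carrier Slc25a1 (60.8 FPKM), the glutathione carrier Slc25a39 (59.6), the ATP-magnesium/phosphate carrier Slc25a24 (54.0) and the oxoglutarate carrier Slc25a11 (39.3). The family's summed FPKM was 1021 to 1035 in Ad-GFP and 988.3 to 1006 in Ad-Cre, or 0.232 to 0.238% and 0.225 to 0.231% of all FPKM. The group ranges of both measures do not overlap. FPKM was not scaled for composition as CPM was, with factors of 1.006 to 1.009 in Ad-GFP and 0.9917 to 0.9938 in Ad-Cre. How far this enters the difference in the family's sum was not tested.

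**Figure D1:**
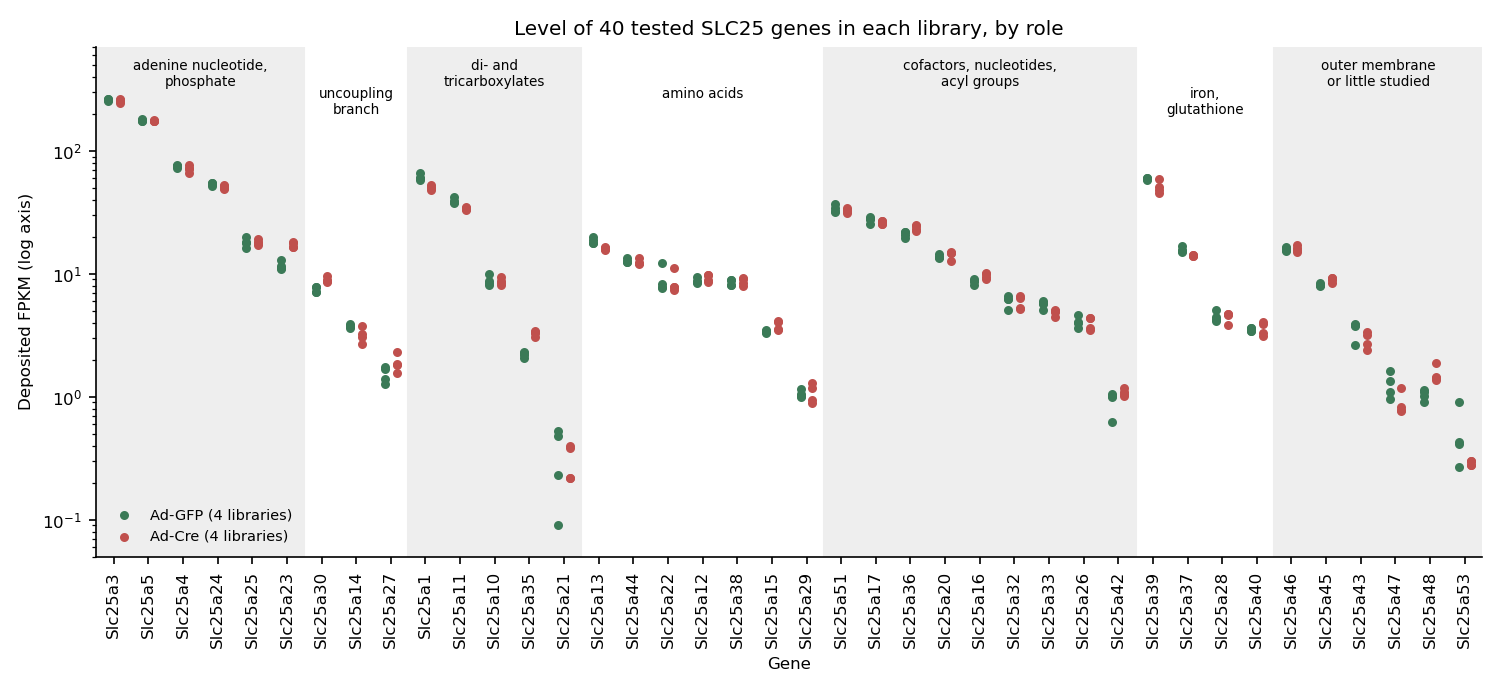
Deposited FPKM (log axis) of 40 tested SLC25 genes, grouped by role and ordered by level, with 1 point per library (green Ad-GFP, red Ad-Cre, 4 libraries each). Slc25a3, Slc25a5 and Slc25a4 lead at 262, 177 and 74.7 FPKM in Ad-GFP, and Slc25a53 and Slc25a21 are the lowest.

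The members not tested were near 0 in every library. Slc25a18 and Slc25a34 had 15 counts each over the 8 libraries, Slc25a31 had 9, Slc25a2 had 7, and Slc25a41 and Slc25a54 had 1 each. Slc25a31 is the ADP/ATP carrier of male germ cells, Slc25a18 the second glutamate carrier and Slc25a2 an ornithine carrier. No fold is given for these genes.

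Between the groups, 13 of the 41 tested members passed the test, 7 higher and 6 lower in Ad-Cre. The background was large: 40.3% of all tested genes passed, 19.8% higher and 20.5% lower, and the members' share of 31.7% was not above it. The median log2 fold change was 0.033 over the members and 0.004 over all genes, and the median of its absolute size was 0.116 against 0.122. Groups did not overlap for 12 of the 41 members, beside 35.4% of all genes. Changes were small: Slc25a35 and Slc25a48 alone among the members passed with at least a 1.5-fold difference, which 6.24% of all genes did.

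Calls varied with the level of the gene. At 50 CPM or more, 8 of 12 members passed (2 higher, 6 lower), beside 52.6% of all genes at that level. Of all 4528 genes at that level, 1391 were higher and 990 lower. From 20 to 50 CPM 3 of 10 passed (40.1% of all genes), from 5 to 20 CPM 1 of 11 (32.3%) and under 5 CPM 1 of 8 (28.7%). All 6 members that fell were thus at 50 CPM or more.

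**Figure D2:**
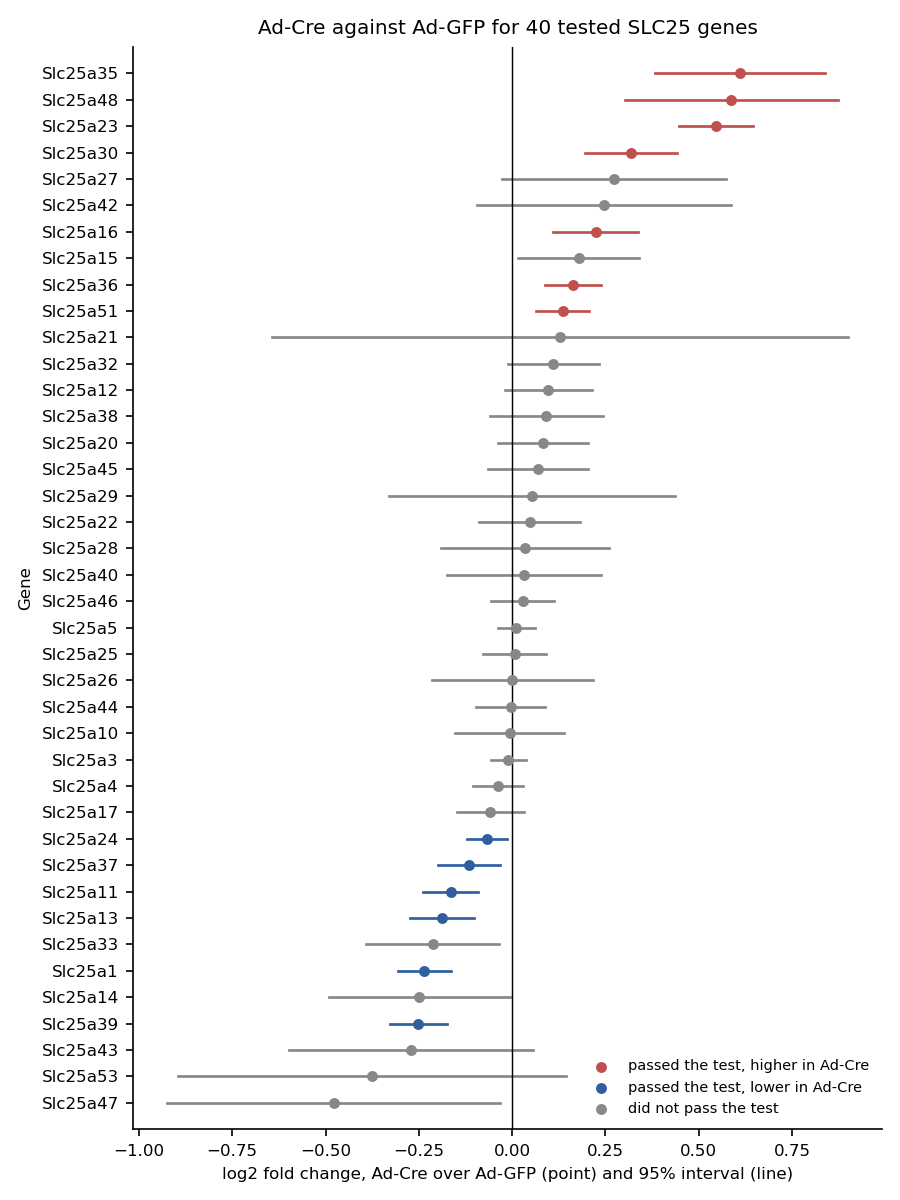
Log2 fold change of Ad-Cre over Ad-GFP (point) with its 95% interval (line) for 40 tested SLC25 genes, coloured by whether they passed the test. Slc25a35, Slc25a48 and Slc25a23 lie furthest to the right among the genes that passed, and Slc25a39 and Slc25a1 furthest to the left.

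The 3 members of smallest p were Slc25a23, which rose, and Slc25a39 and Slc25a1, which fell. Their promoters are printed to show the sequence before each annotated transcription start. Each is the 250 bases before the RefSeq transcription start on GRCm38.p6, minus strand, 5′ to 3′. Capitals mark the motifs found: CCAAT (or ATTGG), the GC box GGGCGG (or CCGCCC) and the E-box CACGTG. The windows are chr17:57059864-57060113 for Slc25a23, chr11:102407518-102407767 for Slc25a39 and chr16:17928220-17928469 for Slc25a1. The GENCODE gene span of Slc25a39 reaches past the RefSeq start, to base 102407946, so that window lies within it.
Slc25a23: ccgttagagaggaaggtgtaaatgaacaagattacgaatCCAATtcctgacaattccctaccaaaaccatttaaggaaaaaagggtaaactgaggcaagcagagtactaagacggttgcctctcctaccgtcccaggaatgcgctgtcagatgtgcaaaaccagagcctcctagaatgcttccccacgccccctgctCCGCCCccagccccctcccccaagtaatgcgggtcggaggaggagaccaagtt
Slc25a39: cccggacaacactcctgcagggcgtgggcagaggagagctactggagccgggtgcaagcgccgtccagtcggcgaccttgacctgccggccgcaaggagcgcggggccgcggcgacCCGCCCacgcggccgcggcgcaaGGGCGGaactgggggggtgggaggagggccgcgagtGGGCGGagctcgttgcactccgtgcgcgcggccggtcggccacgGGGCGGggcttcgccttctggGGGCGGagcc
Slc25a1: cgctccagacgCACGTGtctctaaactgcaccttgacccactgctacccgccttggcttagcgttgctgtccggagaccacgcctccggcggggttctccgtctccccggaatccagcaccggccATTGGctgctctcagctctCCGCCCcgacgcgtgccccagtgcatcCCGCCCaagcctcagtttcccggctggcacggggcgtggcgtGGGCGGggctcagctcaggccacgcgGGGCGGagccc

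The Slc25a23 window held 1 CCAAT box and 1 GC box among 9 CpG dinucleotides, the Slc25a39 window 5 GC boxes and 35 CpG, and the Slc25a1 window 1 CCAAT box, 1 E-box, 4 GC boxes and 25 CpG. RefSeq promoters were matched for 36 of the 47 members. The comparison set was all 27025 genes with a RefSeq promoter, not limited to genes tested here or matched for expression. A gene with several promoters was counted for a motif if any of them held it. Over both strands, GGGCGG was found in 25 of these 36 (69.4%), beside 35.4% of 27025 genes, and CCAAT in 18 (50%, beside 37.5%). CACGTG, which MYC, USF and related factors bind, was found in 7 (19.4%, beside 6.86%), among them the called members Slc25a1, Slc25a13 and Slc25a36. TATAAA was found in 2 (5.56%, beside 14.3%). The consensus element of NRF1, a regulator of nuclear genes for mitochondria, was in 1.12% of all promoters and was not matched in these windows. The median number of CpG in the window was 13 over the members and 6 over all genes. No searched motif contains another, the E-box reads the same on both strands, and a match describes sequence only.

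Adenine nucleotide and phosphate carriers exchange ADP for ATP and bring in phosphate for the ATP synthase. The 3 highest genes of the family did not pass the test. Slc25a3, the phosphate carrier (ENSMUSG00000061904, chr10:91116574-91124059), was at 420.2, 417, 411 and 426 CPM in Ad-GFP and at 421, 401, 429 and 411 CPM in Ad-Cre. The Ad-GFP values lay inside the range of the Ad-Cre values, and the interval of the Ad-Cre level was 96.1 to 102.6% of Ad-GFP (edgeR, adjusted p = 0.761). Slc25a5, which encodes the ADP/ATP carrier ANT2 of dividing and many other cells (chrX:36795651-36798807), was at 214, 223, 215 and 219 CPM in Ad-GFP and at 219.6, 223, 218 and 217 CPM in Ad-Cre, with an interval of 97.4 to 104.2%. Slc25a4, which encodes ANT1 of heart and muscle (chr8:46206797-46211284), was at 139, 144, 144 and 146 CPM in Ad-GFP and at 129, 148, 139 and 139.9 CPM in Ad-Cre, with an interval of 93.0 to 102.1%. The groups overlapped for all 3. Slc25a5 has 7 near-identical copies at 90% identity or more over 200 bases, such as the processed pseudogene Gm5560 at 98.3%, and Slc25a3 has 1 (Gm13904, 90.1%), so the assignment of reads among copies is uncertain.

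The calcium-regulated ATP-magnesium/phosphate carriers, which adjust the adenine nucleotide pool of the matrix, moved unequally. Slc25a23 (ENSMUSG00000046329, chr17:57043711-57059863) was at 35.7, 36.6, 37.3 and 41.8 CPM in Ad-GFP and at 56.5, 51.9, 57.5 and 55.0 CPM in Ad-Cre. Every Ad-Cre library was well above every Ad-GFP library. It rose to 146.0% of its Ad-GFP level (95% interval 136.2 to 156.4%), by 0.55 ± 0.048 on the log2 scale (SE), with the smallest p of the family (edgeR, adjusted p = 1.09e-09). Its exons share 168 bases with Gm17168 on the opposite strand. Slc25a24, the most abundant of these carriers, had means of 183 ± 3.76 (Ad-GFP) and 175 ± 4.10 CPM (Ad-Cre; SD, n = 4). Its groups overlapped, and it fell to 95.4% (adjusted p = 0.0385). This call did not hold without Ad-GFP replicate 1, 2 or 4 (adjusted p = 0.0779, 0.106 and 0.0720) and without Ad-Cre replicate 1 or 2 (0.109 and 0.0610), and by DESeq2 (0.0811) or without a filter on low counts (0.0751). Slc25a25, the stress-inducible carrier of this branch, was at 48.0 and 48.3 CPM (interval 94.7 to 106.6%).

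The uncoupling protein branch holds carriers related to Ucp1, the heat-producing proton carrier of brown fat. Slc25a30, the kidney mitochondrial carrier KMCP1 (chr14:75760117-75787037), was at 28.0, 25.4, 22.8 and 27.8 CPM in Ad-GFP and at 30.8, 34.5, 32.3 and 31.9 CPM in Ad-Cre. The lowest Ad-Cre library was above the highest Ad-GFP library. Slc25a30 rose to 124.7% (interval 114.5 to 135.7%; adjusted p = 1.20e-04). Slc25a14 stood at 6.48 ± 0.221 and 5.42 ± 0.867 CPM and Slc25a27 at 3.79 ± 0.596 and 4.64 ± 0.760 CPM, and neither passed (adjusted p = 0.0969 and 0.142). Without Ad-Cre replicate 2 Slc25a14 did pass, at a log2 fold change of -0.38 (adjusted p = 0.0142). Outside the naming rule, Ucp2 fell from 108 ± 0.903 to 79.5 ± 2.23 CPM, or to 73.4% (adjusted p = 8.01e-12). Ucp1 and Ucp3 were too low to test, at no more than 0.13 CPM in either group's mean. Mtch1 and Mtch2, carrier relatives of the outer membrane that take part in protein insertion and apoptosis, went to 106.7% and 93.5% (adjusted p = 0.0101 and 0.0146). Of Ucp2 and Mtch2 only 1 passed without Ad-GFP replicate 2, without Ad-Cre replicate 1 or with thinned counts, and on FPKM none of the 3 rose.

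Carriers of di- and tricarboxylates pass tricarboxylic acid cycle intermediates between matrix and cytosol. Of the 5 tested genes placed in this group 3 changed, beside 40.3% of all genes. Slc25a35, counted among the 3, is little studied, and what it carries was not measured. Slc25a1, which exports citrate for cytosolic acetyl-CoA and fatty acid synthesis (ENSMUSG00000003528, chr16:17925223-17928219, promoter above), was at 103, 97.0, 100.1 and 95.1 CPM in Ad-GFP and at 84.2, 88.6, 83.3 and 80.1 CPM in Ad-Cre. The highest Ad-Cre library stayed below the lowest Ad-GFP library. Slc25a1 fell to 85.0% (interval 80.9 to 89.3%; log2 fold change -0.23 ± 0.035 SE; adjusted p = 6.09e-06). Slc25a11, the oxoglutarate/malate exchanger of the malate-aspartate shuttle (chr11:70644196-70647479), was at 63.0, 62.1, 62.7 and 65.4 CPM in Ad-GFP and at 55.4, 55.7, 57.6 and 57 CPM in Ad-Cre, again with no overlap. It fell to 89.2% (interval 84.7 to 93.9%; adjusted p = 6.56e-04). Slc25a11 shares 189 exon bases with Rnf167 on the opposite strand, a ubiquitin ligase gene that fell too, from 44.7 to 35.6 CPM (adjusted p = 1.06e-05), and reads of the shared bases cannot be assigned without strand.

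Slc25a35, a little studied member (chr11:68968131-68974365), was at 4.47, 4.37, 4.67 and 4.63 CPM in Ad-GFP and at 6.21, 6.77, 7.50 and 7.16 CPM in Ad-Cre. All Ad-Cre libraries were above all Ad-GFP libraries. It rose to 152.7% (interval 130.4 to 178.9%), the largest log2 fold change of the tested members at 0.61 ± 0.111 (SE; adjusted p = 8.22e-05). Its exons share 1151 bases with Rangrf on the opposite strand, which rose as well, from 2.84 ± 0.77 to 3.85 ± 0.5 CPM (adjusted p = 0.0466), and the reads of the pair cannot be separated without strand. Slc25a10, the dicarboxylate carrier that supplies succinate and malate, was at 17.7 and 17.6 CPM (interval 90 to 110.1%). Slc25a21, the oxoadipate carrier of lysine breakdown, was at 0.630 and 0.713 CPM, with an interval of 64.0 to 186.5% that shows little of either sign.

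Among amino acid carriers 1 of 7 tested genes changed (14.3%, beside 40.3% of all genes). Slc25a13, the aspartate/glutamate exchanger called citrin (chr6:6041218-6217173), was at 54.9, 57.8, 60.6 and 54.0 CPM in Ad-GFP and at 49.9, 48.4, 51.1 and 50.3 CPM in Ad-Cre. Its groups did not overlap, and it fell to 87.7% (interval 82.7 to 93.1%; adjusted p = 7.14e-04). The other exchanger of this kind, Slc25a12 or aralar, was at 26.6 ± 1.61 and 28.6 ± 1.6 CPM and did not pass (107.0%, interval 98.7 to 115.9%). Slc25a15, the ornithine carrier of the urea cycle, had groups that did not overlap, at 11.8, 11.7, 11.5 and 11.3 CPM in Ad-GFP and 12, 13.9, 14.2 and 12.3 CPM in Ad-Cre. It did not pass (adjusted p = 0.0724), though it did without Ad-Cre replicate 1 (log2 fold change 0.21, adjusted p = 0.0401).

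The remaining amino acid carriers gave intervals that included no change. Slc25a44, which carries branched-chain amino acids, stood at 44.9 and 44.8 CPM (interval 93.5 to 106.3%) and the glutamate carrier Slc25a22 at 16.5 and 17.1 CPM (94.1 to 113.5%). Slc25a38, the glycine carrier needed for haem synthesis, stood at 12.1 and 12.9 CPM (95.9 to 118.4%). The basic amino acid carrier Slc25a29 had 2.07 and 2.14 CPM, and its interval of 79.6 to 135.4% was correspondingly wide.

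Of 10 carriers of cofactors, nucleotides and acyl groups 3 rose and none fell, beside 19.8% and 20.5% of all genes. Slc25a36, which brings pyrimidine nucleotides into mitochondria (chr9:97074961-97111157), was at 91.7, 89.8, 84.8 and 91.9 CPM in Ad-GFP and at 94.1, 97.4, 104 and 105 CPM in Ad-Cre. It rose to 112.0% (interval 106.3 to 118.0%; adjusted p = 8.14e-04), with no overlap of the groups. An unprocessed pseudogene, Gm13217, matches 544 of its bases at 99.6% identity. The related pyrimidine nucleotide carrier Slc25a33 was at 10.6 ± 0.769 and 9.18 ± 0.524 CPM, on the other side of 100% (86.3%, interval 76.2 to 97.7%). It missed the threshold (adjusted p = 0.0535) but passed without Ad-GFP replicate 3 (0.0260) or Ad-Cre replicate 1 (0.0491). Slc25a33 also passed in edgeR with upper-quartile factors (0.0354) or a filter at 5 CPM (0.0380). By limma on FPKM it passed with pseudocounts 1 and 0.1 (0.0382 and 0.0387).

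Slc25a16, a carrier linked to coenzyme A (chr10:62920633-62946498), was at 28.6, 25.8, 25.3 and 25.3 CPM in Ad-GFP and at 30.1, 32.4, 31.3 and 28.8 CPM in Ad-Cre. The gap between the groups was small, and the gene rose to 116.8% (interval 108.0 to 126.4%; adjusted p = 0.00205). The other carrier linked to coenzyme A, Slc25a42, was at 2.93 ± 0.660 and 3.48 ± 0.234 CPM and did not pass (interval 93.8 to 150.1%). Slc25a51, which imports NAD+ (chr4:45395923-45408766), was at 81.1, 84.0, 79.4 and 86.1 CPM in Ad-GFP and at 95.1, 88.1, 91.6 and 88.6 CPM in Ad-Cre. By counts it rose to 109.8% (interval 104.5 to 115.3%; adjusted p = 0.00276). By FPKM the direction was the opposite, at a log2 difference of -0.05 that did not pass. A processed pseudogene, Gm17831, matches 904 of its bases at 93.4% identity.

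The other cofactor carriers described here did not pass. Slc25a17, a peroxisomal carrier of coenzyme A and related cofactors, was at 47.0 and 45.2 CPM, and Slc25a20, the carnitine/acylcarnitine carrier of fatty acid oxidation, at 24.5 and 25.8 CPM. Slc25a32, for folate and FAD, was at 20.5 and 22.1 CPM. Slc25a26, which imports S-adenosylmethionine, the methyl donor that histone methyltransferases also use, was at 7.76 and 7.73 CPM (interval 86.1 to 116.2%). These intervals all included 100%, and the narrowest, that of Slc25a17, ran from 90.2 to 102.2%.

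The iron and glutathione carriers held 2 genes that fell among 4, beside 20.5% of all genes. Slc25a39, which imports glutathione (ENSMUSG00000018677, chr11:102402985-102407946, promoter above), was at 86.8, 88.8, 91.1 and 86.2 CPM in Ad-GFP and at 75.7, 78.5, 68.9 and 73.4 CPM in Ad-Cre. The nearest libraries of the groups were well apart, and Slc25a39 fell to 84.0% (interval 79.7 to 88.6%; log2 fold change -0.25 ± 0.037 SE; adjusted p = 5.39e-06). Its close relative Slc25a40 was at 9.30 ± 0.245 and 9.46 ± 1.46 CPM (interval 88.7 to 118.0%). Slc25a37, mitoferrin-1, which imports iron for haem and iron-sulfur clusters, was at 56.0 ± 2.66 and 51.7 ± 1.21 CPM. Its groups overlapped, and it fell to 92.3% (adjusted p = 0.0249). This call did not hold without Ad-GFP replicate 1 or 4 (adjusted p = 0.0630 and 0.104) and without Ad-Cre replicate 2 or 3 (0.0504 and 0.0676), by DESeq2 (0.0732) and with counts thinned to the smallest library (0.0544). The predicted gene Gm16867 matches 382 bases of Slc25a37 without a mismatch. Slc25a28, mitoferrin-2, was at 6.70 and 6.83 CPM (interval 87.5 to 119.8%).

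Of the 6 outer membrane or little studied members, Slc25a48 alone passed, beside 40.3% of all genes, and rose. Its levels were 3.38, 3.65, 3.78 and 3.06 CPM in Ad-GFP and at 4.81, 4.67, 4.95 and 6.43 CPM in Ad-Cre (chr13:56438355-56474239). The Ad-Cre libraries were all above the Ad-GFP libraries, and replicate 4 stood apart from the other 3. Slc25a48 rose to 150.2% (interval 123.3 to 183.1%; adjusted p = 0.00140), and without Ad-Cre replicate 4 the log2 fold change went from 0.59 to 0.47 and still passed. Slc25a46, which shapes mitochondrial dynamics at the outer membrane, was at 68.9 and 70.3 CPM (interval 96.2 to 108.0%), and Slc25a45 at 17.1 and 17.9 CPM (95.5 to 115.1%). Slc25a43, Slc25a47 and Slc25a53 were between 0.914 and 3.88 CPM in either group's mean, at 82.9%, 71.8% and 77.1% of Ad-GFP, and did not pass. Slc25a47 passed without Ad-Cre replicate 4 (log2 fold change -0.63, adjusted p = 0.0409).

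**Figure D3:**
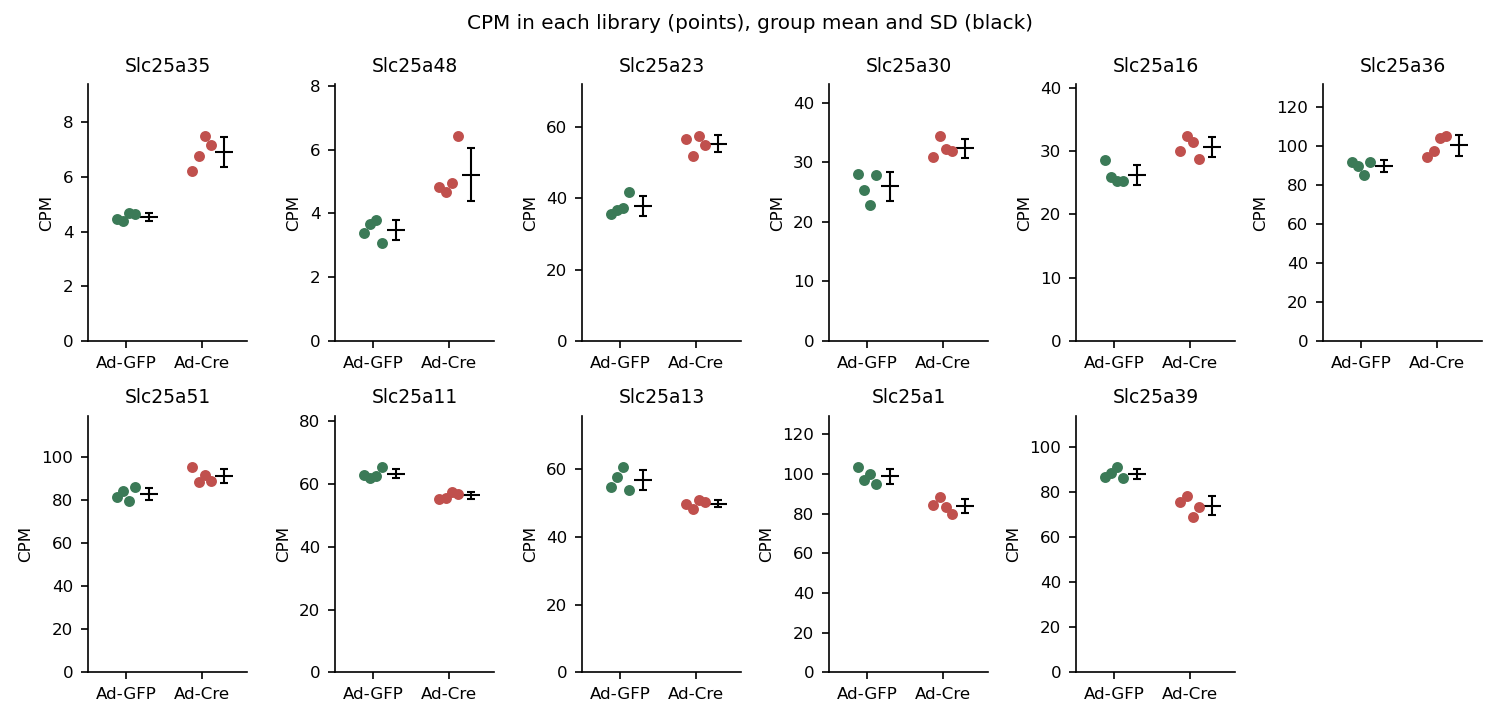
CPM (linear axes from 0) in each library for the 11 SLC25 genes that passed the test and whose groups do not overlap, with the group mean and SD in black (n = 4 per group). The upper row with Slc25a51 holds the 7 genes higher in Ad-Cre, led by Slc25a35 and Slc25a48 at 152.7% and 150.2% of Ad-GFP, and Slc25a11, Slc25a13, Slc25a1 and Slc25a39 are lower, at 84.0 to 89.2%.

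Related carriers were also compared as the ratio of their FPKM within a library, which does not depend on library scaling. It does depend on the length behind each FPKM, which varied between libraries for some genes, as given below. For Slc25a39 that length was 1330 bases in Ad-Cre replicate 2 and 1470 to 1519 bases in the other libraries. Slc25a24 to Slc25a23, the abundant to the rarer ATP-magnesium/phosphate carrier, was 4.94, 5.02, 4.48 and 4.21 in Ad-GFP and 2.78, 3.03, 2.84 and 3.19 in Ad-Cre. The mean went from 4.66 ± 0.38 to 2.96 ± 0.19 (SD, n = 4) without overlap. Slc25a39 to Slc25a40 was 17.3, 16.6, 16.7 and 16.9 in Ad-GFP and 16.4, 15, 13.9 and 11.8 in Ad-Cre. The Ad-Cre values were spread widely, and the nearest pair of libraries was 16.6 against 16.4. Slc25a36 to Slc25a33, the pyrimidine nucleotide carriers, was 3.73 ± 0.20 in Ad-GFP and 4.92 ± 0.53 in Ad-Cre, with all Ad-Cre libraries above all Ad-GFP libraries.

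The other ratios overlapped between the groups. Slc25a13 to Slc25a12 was 2.12 ± 0.18 and 1.75 ± 0.11, with an overlap of 1 Ad-GFP library at 1.89 and 1 Ad-Cre library at 1.90. Slc25a5 to Slc25a4, the balance of ADP/ATP carriers, was 2.37 ± 0.044 and 2.46 ± 0.14. Slc25a24 to Slc25a25 was 3.01 ± 0.25 and 2.82 ± 0.16, and Slc25a37 to Slc25a28, the mitoferrins, 3.52 ± 0.35 and 3.20 ± 0.37. The ratios are descriptions without a test, and those of called genes use the same reads as the calls. Slc25a22 to Slc25a18 was not computed because Slc25a18 was under 1 FPKM.

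**Figure D4:**
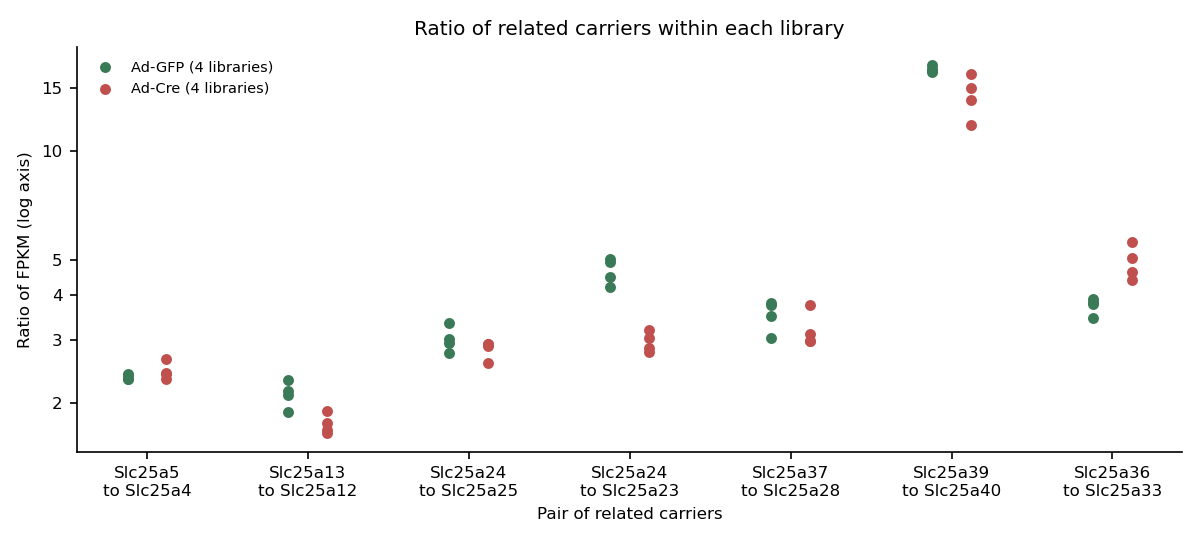
Ratio of the FPKM of 2 related carriers within each library (log axis), with 1 point per library (green Ad-GFP, red Ad-Cre). The ratio of Slc25a24 to Slc25a23 is 4.21 to 5.02 in Ad-GFP and 2.78 to 3.19 in Ad-Cre, that of Slc25a36 to Slc25a33 is higher in Ad-Cre, and the pairs on the left overlap.

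The deposited counts and FPKM of a gene did not always move together. A count divided by its FPKM and by the library total gives the length the FPKM was computed with. For Slc25a51 this implied length was 2572, 2307, 2455 and 2524 bases in Ad-GFP and 2768, 2721, 2759 and 2792 bases in Ad-Cre. The groups did not overlap in length, which goes with its opposite signs by count and by FPKM. In the authors' deposited table, Slc25a51 has a log2 fold change of -0.05 with an FDR of 0.00635, while its deposited counts gave 0.13. For Slc25a22 the implied length was 1284 bases in Ad-GFP replicate 3 and 1485 bases in Ad-Cre replicate 3, but 2022 to 2321 bases in the other 6 libraries. Its FPKM in these 2 libraries was 12.23 and 11.07, above the 7.45 to 8.33 of the others, while its CPM was not (15.6 and 16.6). Slc25a32 varied with a coefficient of variation of 10.2%, whereas the coefficients of Slc25a3, Slc25a4 and Slc25a5 were at most 0.0292%. A variation over 5% was found in 4 of 26 members with at least 5 FPKM in every library, beside 13.4% of 8395 such genes.

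FPKM in place of counts (limma on log2 of FPKM plus 1) was used without the scaling for composition applied to counts. Then 12 of 39 tested members passed, 5 higher and 7 lower, instead of 7 higher and 6 lower. Of the 11679 genes with a mean of at least 1 FPKM, 30.2% passed. Slc25a16 and Slc25a51 were the called members lost, and Slc25a33 was gained. By the authors' deposited table, 11 members had an FDR below 0.05, beside 23.6% of the 17653 rows for which that table gives a p-value below 1. All 11 passed in the counts as well, where Slc25a24 and Slc25a37 passed in addition.

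**Figure D5:**
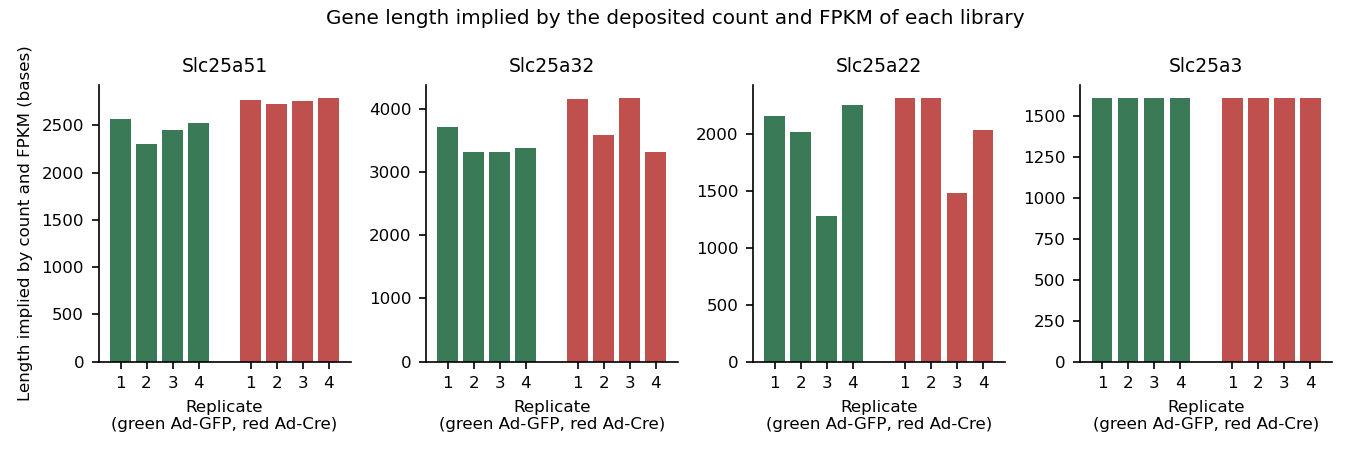
Length in bases implied by the deposited count and FPKM of each library (bars from 0, green Ad-GFP, red Ad-Cre, replicates 1 to 4) for Slc25a51, Slc25a32, Slc25a22 and, for comparison, Slc25a3. Slc25a51 is longer in all Ad-Cre libraries, Slc25a22 is short in replicate 3 of both groups, and Slc25a3 is constant at 1609 to 1611 bases.

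Genes that act beside the carriers were read from lists, all with the same test and against the same 40.3% of genes called. The lists were not matched for level, and of all genes at a mean of 50 CPM or more 52.6% were called. The malate-aspartate shuttle and citrate enzymes and the mitochondrially encoded genes lay at such levels. Of 12 enzymes of the malate-aspartate shuttle and of citrate use, 3 rose and 7 fell. Citrate synthase (Cs), which makes the citrate that Slc25a1 exports, fell from 346 ± 8.95 to 299 ± 2.41 CPM, or to 86.2% (adjusted p = 3.04e-08). Mdh2, mitochondrial malate dehydrogenase, fell to 91.5% (9.42e-05). The median log2 fold change of the list was -0.07. On FPKM none of these enzymes rose and 7 fell.

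Enzymes of mitochondrial folate and methyl group use rose in 2 and fell in 4 of 9 tested cases. Shmt2, which splits serine for formate production, fell from 87.8 ± 1.15 to 67.5 ± 1.72 CPM, or to 76.8% (adjusted p = 5.56e-10). Mthfd1l, the last enzyme of formate production, fell to 72.2% (1.53e-06), and Aldh1l2, the mitochondrial formyltetrahydrofolate dehydrogenase, to 80.8% (2.85e-05). Only 1 of the list rose without Ad-GFP replicate 1 or Ad-Cre replicate 4, by DESeq2 and on FPKM, and 3 rose without Ad-GFP replicate 2. The carriers of these cofactors, Slc25a32 and Slc25a26, did not pass the test.

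Of 14 haem and iron-sulfur cluster genes 4 rose and none fell. Tfrc, the transferrin receptor of iron uptake, rose from 128 ± 7.0 to 157 ± 8.66 CPM (123.4%; adjusted p = 3.04e-07), Isca1, an iron-sulfur assembly protein, to 114.7% (6.11e-04) and Fech, which inserts iron into haem, to 114.2% (0.00141). Mitoferrin-1 (Slc25a37), as given above, fell.

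The carnitine system had 3 genes that rose and 2 that fell among 9. Acadvl, the very-long-chain acyl-CoA dehydrogenase, rose to 114.1% (adjusted p = 1.58e-05), while the carnitine palmitoyltransferases Cpt1c and Cpt1a fell to 74.9% (3.35e-05) and 88.9% (0.00356). Without Ad-GFP replicate 4, Ad-Cre replicate 1 or Ad-Cre replicate 2, by DESeq2 and on FPKM, only 1 rose and 2 fell, and with upper-quartile factors or a filter at 5 CPM 1 rose and 3 fell. Slc25a20, the carrier of this system, did not pass.

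The import route of the carriers had 1 gene that rose and 2 that fell among 13. Tomm40, the pore of the outer membrane translocase, fell from 64.6 ± 3.94 to 50.4 ± 1.05 CPM (78.1%; adjusted p = 1.60e-07), its receptor subunit Tomm22 fell to 92.5% (0.0230) and the small intermembrane space chaperone Timm8b rose to 112.8% (0.0372). The call of Timm8b did not hold without Ad-GFP replicate 2, 3 or 4, without Ad-Cre replicate 2, 3 or 4, with upper-quartile factors, with a filter at 5 CPM, with thinned counts, by DESeq2 or on FPKM. Only 1 gene of the list fell without Ad-GFP replicate 1, without Ad-Cre replicate 1 or 3, by DESeq2 and on FPKM. The carrier receptor Tomm70a and the inner membrane channel Timm22, after which the list is called, did not pass (96.9% and 96.5%).

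Among 14 tested ATP synthase genes 2 rose and 3 fell. Atp5d fell to 85.7% (adjusted p = 1.37e-06), Atp5b fell to 94.2% (6.43e-04) and Atp5l rose to 109.3% (0.0125). Without Ad-Cre replicate 2, without Ad-Cre replicate 4 and on FPKM none of these genes rose and 4 fell. Only 1 rose without Ad-GFP replicate 3 or 4 and with upper-quartile factors. These subunits use the phosphate and nucleotides that Slc25a3, Slc25a4 and Slc25a5 move, and the intervals of those 3 carriers, given above, did not go below 93.0%. Other mitochondrial carriers and pores rose in 4 and fell in 1 of 12 cases. Sfxn3, a sideroflexin of serine transport, rose from 83.3 ± 2.74 to 105 ± 2.99 CPM (125.5%; adjusted p = 8.10e-09), Vdac1, the outer membrane channel, to 108.9% (4.74e-04) and Letm1, an ion exchanger, to 108.8% (0.00895). None of this list fell without Ad-GFP replicate 2, without Ad-Cre replicate 1 or 3, by DESeq2 or without a filter, and on FPKM 2 rose and 1 fell.

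Of 13 mitochondrially encoded genes 7 rose and 1 fell, with summed levels of 75280 to 78990 CPM in Ad-GFP and 77950 to 80620 CPM in Ad-Cre, which overlap. The 3 of smallest p were mt-Nd2 (112.7%; adjusted p = 1.18e-07), mt-Nd1 (108.5%; 2.07e-04) and mt-Co2 (110.6%; 3.55e-04). Without Ad-GFP replicate 2, Ad-GFP replicate 4 or Ad-Cre replicate 4, 4 rose and 1 fell. On FPKM 2 rose and 1 fell, and 10 rose without a filter on low counts. Of 10 regulators of mitochondrial biogenesis 2 fell, Esrra to 88.7% (adjusted p = 0.0200) and Nrf1 to 89.8% (0.0236). Only 1 of them passed without Ad-GFP replicate 1, 2 or 3 or without Ad-Cre replicate 1, and neither did without Ad-Cre replicate 4 or by DESeq2.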

How the data were processed

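RNA sequencing was analysed in 4 Ad-GFP and 4 Ad-Cre samples, grouped by their titles. The authors deposited, per the file headers, whole-number read counts and FPKM of each library, the mean FPKM of each group, log2 fold changes, p-values and FDR. The submitters' processing notes name GRCm38 and mm10. Aligner, counter, strand setting, annotation release and the test behind the deposited p-values are not given in the sources used. The 2 units are not interchangeable. The length behind an FPKM varied between libraries for some genes, and FPKM was not scaled for composition as CPM was. Slc25a3, whose implied length was nearly constant, had a log2 ratio of -0.031 by FPKM and -0.01 by CPM.

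Counts were taken as deposited into edgeR 4.0.16 (R 4.3.3). filterByExpr kept 13337 genes, libraries were scaled by TMM factors of 0.9917 to 1.009, and groups were compared by the two-sided quasi-likelihood F-test. Adjusted p-values are Benjamini-Hochberg over all genes tested, and "rose" or "fell" means an adjusted p below 0.05. Standard errors are the log2 fold change divided by the root of F. The 95% intervals use the fit's total degrees of freedom, which add to the residual ones those borrowed across genes (median 25.2). CPM is relative to the scaled library totals. The common biological coefficient of variation was 2.89%. Replicate pairs differed by more than sampling noise (chi-square per degree of freedom 1.83 to 3.35), so all 8 libraries were counted.

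Alternatives were other scaling factors, filters, thinned counts, DESeq2 1.42.0, limma-voom and limma on FPKM (limma 3.58.1), a replicate block and leaving out each library. The family, its role groups and the gene lists were chosen with earlier results of these data known. By rule, values in every library are given for called members whose groups do not overlap and for Slc25a3, Slc25a4 and Slc25a5, and up to 3 called genes of smallest p are named per list, or the 2 of highest CPM for cell types. Coordinates are from GENCODE M21 on GRCm38, where 22267 of the 22322 gene IDs were found. Near-identical copies were sought with blastn 2.17.0 at 90% identity over 200 bases or more. The fit was tested on simulated data. A member of the family and a gene of the lists, which entered the counts, are not reported here by name.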

Additional observations from a re-analysis of the deposited data

Results flagged for a closer look

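In all, 182 sets of 4 libraries were examined, among them CPM and FPKM of each tested member and each ratio, per group. Of these sets, 17 had 1 library that stood apart from the other 3 by Dixon's criterion. Its critical value for 4 samples is 0.829. Chance gives about 1 in 20 such sets, and several genes appear by both CPM and FPKM of the same library. The value given for each is the gap to the nearest library as a share of the range.

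In the Ad-GFP group, replicate 1 was high for Slc25a12 (29.0 CPM against 25.6 to 26.2, 0.845) and for Slc25a20 (25.8 CPM against 23.8 to 24.2, 0.829; by FPKM 0.841), and low for Slc25a42 (1.95 CPM against 3.15 to 3.37, 0.848; by FPKM 0.841). Replicate 3 was low for Slc25a43 (2.90 CPM against 4.13 to 4.31, 0.869; by FPKM 0.854).

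In the Ad-Cre group, replicate 3 was high for Slc25a44 (48.3 CPM against 43.2 to 44.0, 0.843; by FPKM 0.846). Replicate 4 was high for Slc25a47 (1.86 CPM against 1.26 to 1.34, 0.863; by FPKM 0.854) and for Slc25a48 (6.43 CPM against 4.67 to 4.95, 0.840; by FPKM 0.846). Slc25a48 is the called gene among these, and it passed the test without that library as well. Replicate 1 was low for Slc25a28 by FPKM alone (3.83 against 4.61 to 4.72, 0.876) and for the ratio of Slc25a24 to Slc25a25 (2.58 against 2.88 to 2.91, 0.918).

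Slc25a22 had 1 FPKM value apart in each group, both in replicate 3: 12.23 against 7.62 to 8.33 in Ad-GFP (0.846) and 11.07 against 7.45 to 7.84 in Ad-Cre (0.892). Its counts did not stand apart in these libraries.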

How the results depend on the processing

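Of the 13 called members, 9 kept their direction and their side of the threshold in every alternative they entered, of 18, the exceptions being Slc25a16, Slc25a24, Slc25a37 and Slc25a51. Among 28 uncalled members, 4 passed in some alternative (Slc25a14, Slc25a15, Slc25a33 and Slc25a47), and 14 changed sign without a call in either fit. The count of called members was 11 to 14 when 1 library was left out, and that of all genes 4816 to 5084. Over all alternatives the count of called members was 11 to 14. On FPKM, which was not scaled for composition, all genes called went from 5370 to 3530 (pseudocount 1, 1400 higher and 2130 lower). With pseudocount 0.1 they were 3520 (1393 higher, 2127 lower). The cause was not tested. Slc25a51 reversed there, at -0.048 and -0.049, where its implied length differs between groups, and Slc25a16 no longer passed (adjusted p = 0.0637 and 0.0626). With upper-quartile factors 2164 genes were higher and 3089 lower, against 2641 and 2729. Same-numbered libraries did not deviate together (correlations of 0.0831, 0.104, 0.0076 and -0.0115), so the numbers were not taken as pairs; with the replicate block 13 members (7 higher, 6 lower) and 5390 genes passed, with 2654 higher and 2736 lower. Depth limits the members under 5 CPM, such as Slc25a21, whose interval ran from 64.0 to 186.5%.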

Other observations

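Several members lie side by side on their chromosome and were read as pairs, chosen after their values were seen. Slc25a23, which rose, has Slc25a41 next to it on the same strand (chr17:57032773-57041654), with 1 count over the 8 libraries. Slc25a24 (chr3:109123149-109168457) has Slc25a54 next to it (chr3:109080469-109116687), again with 1 count, beside 27306 counts for Slc25a24. On chromosome 12, Slc25a29 (chr12:108825873-108835883, minus strand) and Slc25a47 (chr12:108836046-108856815, plus strand) begin close to each other, at 2.07 and 2.0 CPM in Ad-GFP and 2.14 and 1.44 CPM in Ad-Cre, and neither passed the test. On the X chromosome, Slc25a43 (chrX:36743659-36777202) and Slc25a5 lie on the same strand, at 3.88 and 218 CPM in Ad-GFP and 3.24 and 219.5 CPM in Ad-Cre. In each of these pairs the members are read from deposited counts of separate genes, and no difference within a pair was tested.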
